A study of Mus musculus with 6 samples.

Results

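The miR-99 and miR-125 arms are 7 mature microRNAs (miRNAs) cut from the miR-99a, miR-99b, miR-125a and miR-125b hairpins. They were taken by name from a table of 707 mature miRNAs counted in the exosomes, small vesicles shed by cells, of mouse bone marrow-derived macrophages. The set holds 4 arms from the 5′ side of a hairpin (5p) and 3 from the 3′ side (3p). All 7 passed the filter on low counts (a level of 129 CPM before TMM scaling in at least 3 libraries), miR-99a-5p and miR-125b-1-3p through 1 genotype only. miR-99b-3p reached that level in 3 WT and 2 san:san libraries. Exosomes in the culture supernatant of wild-type (WT) macrophages were compared with those of macrophages of the Roquin-1 san:san genotype, with 3 libraries of each, all on the C57BL/6 strain. Roquin-1 binds messenger RNAs and promotes their decay, and its san (sanroque) allele is the one carried here on both copies. The sources used here do not give age, sex, culture conditions or the way in which exosomes were isolated. Whether the 3 libraries of a genotype are of different mice or cultures is not stated either, so p-values measure the spread between these libraries, which may be technical.

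A miRNA hairpin is cut into a short duplex, of which usually 1 strand, the guide, is loaded into an Argonaute protein, while the other, the passenger, is degraded. The loaded strand finds its messenger RNAs mainly through its seed, bases 2 to 8 from the 5′ end. miR-125 is the mammalian counterpart of the worm miRNA lin-4 and is known for its part in blood cell differentiation, and in macrophages miR-125b-5p is known to repress the messenger RNAs of Tnf and Irf4. The miR-99 and miR-100 miRNAs are known repressors of mTOR, a kinase that controls cell growth.

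The mature sequences are shown, 5′ to 3′ with the seed in capitals, because the members are described below by arm and by seed. They are from RefSeq, build GRCm38.p6, where all 7 members were found.
mmu-miR-125a-5p: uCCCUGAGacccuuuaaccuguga
mmu-miR-125b-5p: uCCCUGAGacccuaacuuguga
mmu-miR-99a-5p: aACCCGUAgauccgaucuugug
mmu-miR-99b-5p: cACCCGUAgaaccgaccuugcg
mmu-miR-125a-3p: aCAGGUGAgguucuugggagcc
mmu-miR-125b-1-3p: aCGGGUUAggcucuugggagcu
mmu-miR-99b-3p: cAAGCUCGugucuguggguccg

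The 5p arms fall into 2 seed groups, CCCUGAG for miR-125a-5p and miR-125b-5p, and ACCCGUA for miR-99a-5p and miR-99b-5p. Each of the 3 3p arms has a seed of its own. An alignment of miR-125a-5p with miR-125b-5p had 21 identical bases, 1 mismatch and 2 gap positions. miR-99a-5p and miR-99b-5p, both of 22 bases, differ by 4 substitutions (A1C, U11A, U16C and U21C, written with the base of miR-99a-5p first and positions counted from the 5′ end). The 3p arms miR-125a-3p and miR-125b-1-3p also differ by 4 (A3G, G7U, U11C and C22U, with the base of miR-125a-3p first), of which the first pair lies in the seed. No member had the same counts as another name in the table.

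The hairpins lie in 3 clusters, each with a let-7 hairpin between a miR-99 or miR-100 hairpin and a miR-125 hairpin, in the RefSeq annotation of GRCm38.p6. Mir99b (chr17:17830188-17830257), Mirlet7e (chr17:17830352-17830444) and Mir125a (chr17:17830812-17830879) span 692 bases on the plus strand. In the GENCODE annotation of GRCm38 the first pair lies in introns of Spaca6, a protein-coding gene on the same strand, and Mir125a overlaps an exon of it. Mir99a (chr16:77598936-77599000) lies 656 bases from Mirlet7c-1, and Mir125b-2 (chr16:77646273-77646343) a further 46522 bases away. All of these chromosome 16 hairpins are in introns of the non-coding Mir99ahg, and Mir125b-2 also overlaps an exon of C130023A14Rik. Mir125b-1 (chr9:41581926-41582002) is 45114 bases from Mirlet7a-2, in introns of non-coding genes and over an exon of the sense intronic Gm28119, and Mir100 lies in the same cluster. miR-125b-5p can be cut from Mir125b-1 or Mir125b-2, whereas miR-125b-1-3p is cut from Mir125b-1 alone. The Mir125a hairpin, shown because its arm balance was measured, has both mature arms in capitals.
Mir125a: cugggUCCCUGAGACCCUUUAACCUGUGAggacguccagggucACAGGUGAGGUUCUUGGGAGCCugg

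The WT libraries held 12447 to 28884 counts and the san:san libraries 126098 to 185901, so depth and genotype cannot be told apart by library. A single count was worth 28.1 to 70.4 in TMM-scaled CPM (a miRNA's share of its library, brought to a common library size) in WT and 6.38 to 10.4 CPM in san:san. Of 9 macrophage and myeloid miRNAs, such as miR-223-3p and miR-142a-3p, all were present, at 5.56% to 6.60% of WT counts and 10.9% to 12.3% of san:san counts. Some markers of other cells moved with the genotype as well. The 4 erythroid miRNAs held 2.68% to 4.59% of WT and 10.3% to 11.9% of san:san counts, and the 2 lymphocyte miRNAs 0.412% to 0.492% and 1.38% to 1.92%. The 2 endothelial miRNAs held 1.82% to 3.69% and 3.37% to 6.96%, which overlap. The 8 stromal and smooth muscle miRNAs, at 0.972% to 1.58% and 1.09% to 1.18%, also overlapped between genotypes as a sum. Of the 7 of them that were tested, 3 were higher in san:san and 1 was lower (34.6% and 29.5% over all miRNAs tested). The liver miRNA miR-122-5p held 0.501% to 0.699% of WT and 0.420% to 0.580% of san:san counts, which overlap. The part of other cells in the results on the members was not tested. Libraries thinned to 12447 counts, given below, even out the number of counts only. Whether whatever made the depths differ also moved the members was not tested. In such bulk samples, a change in the vesicles of 1 cell type and a change in its share of all vesicles cannot be told apart.

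miR-125a-3p, miR-99b-3p and miR-125b-5p were lower in san:san exosomes, miR-125b-1-3p was lower and miR-99a-5p higher on few counts, and the other 5p arms, of miR-125a and miR-99b, did not pass. In edgeR's quasi-likelihood test with Benjamini-Hochberg adjustment over 254 miRNAs, 5 of the 7 members passed at an adjusted p under 0.05, against 64.2% of all miRNAs tested. Of these, 4 were lower, against 29.5% of all miRNAs tested, and 1 was higher, against 34.6%. Of the 5, miR-99a-5p and miR-125b-1-3p reached the filter's level only through the genotype in which they were high, so a difference was built into their being tested and their calls add nothing to the count. Of the other 5 members, 3 were lower and 2 did not pass. The lower ones include miR-99b-3p, which reached the filter's level in 3 WT but only 2 san:san libraries. On san:san alone it would not have been tested. With library totals in place of TMM the split over all miRNAs was 49 higher and 101 lower, against 88 and 75. DESeq2, run on 707 names without that filter, gave 62 and 104. The median log2 fold change was -1.90 over the members, including the pair tested through 1 genotype, and 0.30 over all miRNAs tested. CPM did not overlap between the genotypes for 5 of the members, and for 70.9% of all miRNAs tested. These 5 include miR-99a-5p and miR-125b-1-3p, for which a gap was built into their being tested. The others without overlap were miR-125a-3p, miR-125b-5p and miR-99b-3p. The members together made up 1.81%, 2.41% and 2.20% of counts in WT replicates 1 to 3, and 0.791%, 0.731% and 0.676% in san:san (exact two-sided permutation p = 0.1, the smallest that 3 libraries against 3 allow).

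**Figure D1:**
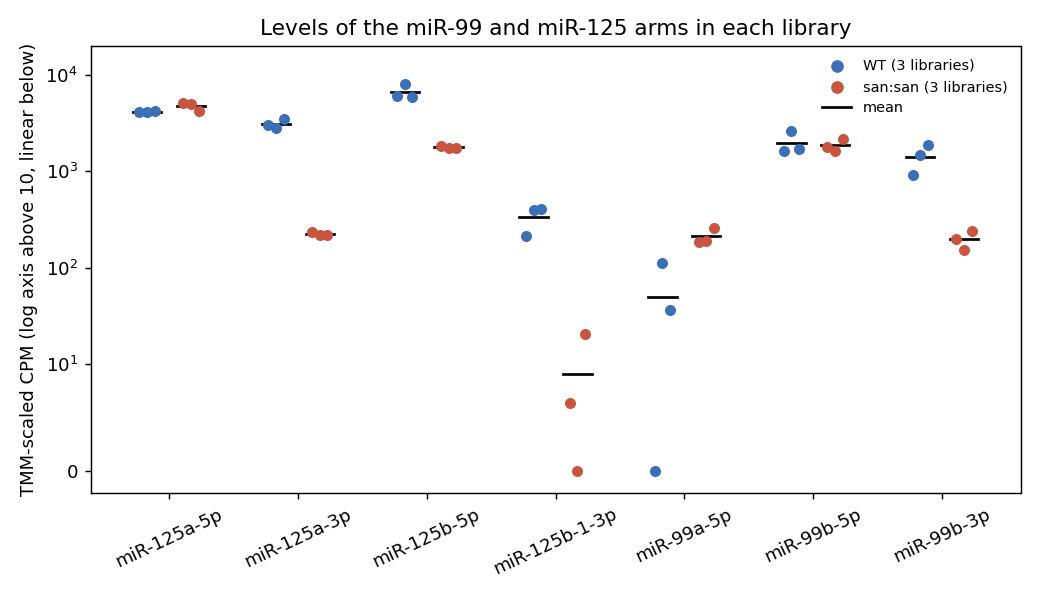
Level of each arm in each library, as TMM-scaled CPM on an axis that is logarithmic above 10 and linear below. Points are libraries (blue WT, red san:san, 3 each) and lines are means. The san:san points of the 3 3p arms and of miR-125b-5p lie below all WT points, while those of the other 5p arms of miR-125a and miR-99b overlap with WT.

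Among the 5p arms, mmu-miR-125a-5p had the most counts in san:san. It is the usual guide strand of its hairpin. WT had 58, 146 and 114 counts and san:san had 800, 655 and 403, which correspond to 4081, 4100 and 4178 CPM and to 5104, 4986 and 4177 CPM. The WT libraries lay close together, and san:san replicate 3 was just below the highest of them. The WT mean was 4120 ± 51.4 CPM and the san:san mean 4756 ± 505 CPM (SD, n = 3 per genotype throughout). The log2 fold change was 0.21 ± 0.19 (SE), and the edgeR adjusted p was 0.337. The sign depended on the scaling, at -0.04 with RLE factors and -0.39 with library totals, and neither value passed.

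mmu-miR-125b-5p, with the same seed, fell 3.73-fold. The WT libraries had 85, 284 and 160 counts, or 5981, 7975 and 5864 CPM, and the san:san libraries 289, 230 and 168 counts, or 1844, 1751 and 1741 CPM. The lowest WT library was thus far above the highest san:san library, and the san:san libraries were nearly equal. The log2 fold change was -1.90 ± 0.20 (SE, edgeR adjusted p = 2.32e-06), and it was below 0 with an adjusted p under 0.05 under every alternative that was run. In mean CPM this arm ranked 29 among all names in WT and 74 in san:san, while miR-125a-5p ranked 39 and 36.

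The 2 miR-125 5p arms thus stood in the opposite order in the genotypes. Within a library, the ratio of their counts does not depend on scaling. WT exosomes had 1.40 to 1.95 counts of miR-125b-5p for each count of miR-125a-5p, and san:san exosomes had 0.351 to 0.417. The mean log2 ratio was 0.67 ± 0.26 in WT and -1.41 ± 0.13 in san:san, a 4.21-fold difference without overlap (exact permutation p = 0.1, the smallest possible). The summed share of the 2 arms in a library's raw counts, without the TMM scaling of the levels above, was 1.30% ± 0.173 for WT and 0.530% ± 0.0690 for san:san.

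The level of mmu-miR-99b-5p did not differ beyond the test's threshold. Its CPM values were 1618, 2640 and 1686 in WT (23, 94 and 46 counts) and 1806, 1637 and 2187 in san:san (283, 215 and 211 counts), with full overlap between the genotypes. The log2 fold change was -0.12 ± 0.24 (SE, edgeR adjusted p = 0.653), and it was called lower with library totals (-0.73, adjusted p = 0.0178). Its value turned to 0.07 without WT replicate 2, which had its highest level. The count ratio of miR-99b-5p to its cluster partner miR-125a-5p was 0.397 to 0.644 in WT and 0.328 to 0.524 in san:san and overlapped (difference of the mean log2 ratio -0.25, exact permutation p = 0.5).

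mmu-miR-99a-5p, which shares the miR-99b-5p seed, was rare in both genotypes. Counts were 0, 4 and 1 across the WT libraries and 29, 25 and 25 across the san:san libraries, or 0, 112 and 36.6 CPM against 185, 190 and 259 CPM. A count of 0 in WT replicate 1 allows up to 211 CPM, taking 3 counts as the limit, which is as high as the san:san mean of 211 ± 41.3 CPM. It had enough counts for the test in all 3 san:san libraries but in only 1 WT library, so it was tested through san:san, where it was high. With that limit, its log2 fold change was 1.68 ± 0.65 (SE, edgeR adjusted p = 0.0374), and 1.81 with no filter (adjusted p = 0.0319). The ratio of summed scaled counts was 3.17 in favour of san:san, with an exact 95% counting interval of 1.30 to 10.03, and such intervals and limits cover counting error only. This call ended with RLE factors (adjusted p = 0.0715), library totals (0.184), DESeq2 (0.164) and without WT replicates 1 (0.0919) or 3 (0.131). Without WT replicate 2, which had 4 of the 5 WT counts, the log2 value was 2.94 (adjusted p = 0.0326). Its partner arm miR-99a-3p had 0 counts in every WT library and 9, 9 and 8 in san:san, at least 1.74-fold higher when 3 counts over the WT group are taken as the limit. It was too low to test.

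The 3p arms carried the largest decreases. mmu-miR-125a-3p, the usual passenger strand of its hairpin, fell 13.7-fold. WT libraries had 43, 101 and 95 counts and san:san libraries 37, 29 and 21, so the deeper san:san libraries held fewer counts in all (87) than the WT libraries (239). Scaled, these were 3026, 2836 and 3482 CPM in WT against 236, 221 and 218 CPM in san:san, tight within each genotype and far apart between them. The log2 fold change was -3.78 ± 0.23 (SE, edgeR adjusted p = 1.94e-08), which ranked 3 of 254 by p. Its rank in mean CPM was 46 in WT and 183 in san:san.

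mmu-miR-99b-3p fell 7.60-fold. Its counts were 13, 53 and 51 in WT against 31, 20 and 23 in san:san, or 915, 1488 and 1869 CPM against 198, 152 and 238 CPM. WT varied about 2-fold among its libraries, yet its lowest library was above every san:san library. It reached the filter's level in all 3 WT libraries but in only 2 san:san libraries, so san:san alone would not have passed it. The log2 fold change was -2.93 ± 0.29 (SE, edgeR adjusted p = 1.67e-06).

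mmu-miR-125b-1-3p, a minor arm, was counted 3, 14 and 11 times in WT but 1, 0 and 2 times in san:san. These were 211, 393 and 403 CPM in WT against 6.38, 0 and 20.7 CPM in san:san, where the count of 0 in replicate 2 allows up to 22.8 CPM. It was tested only through WT, since no san:san library reached the filter's level. The log2 fold change was -5.24 ± 0.65 (SE, edgeR adjusted p = 1.06e-05), and -5.10 with no filter. With 3 counts over all san:san libraries its size is poorly fixed: the WT to san:san ratio of summed scaled counts was 46.5, with an exact 95% counting interval of 14.4 to 239. The log2 value was -6.17 without san:san replicate 3, which held 2 of those counts, and -4.68 without san:san replicate 2.

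**Figure D2:**
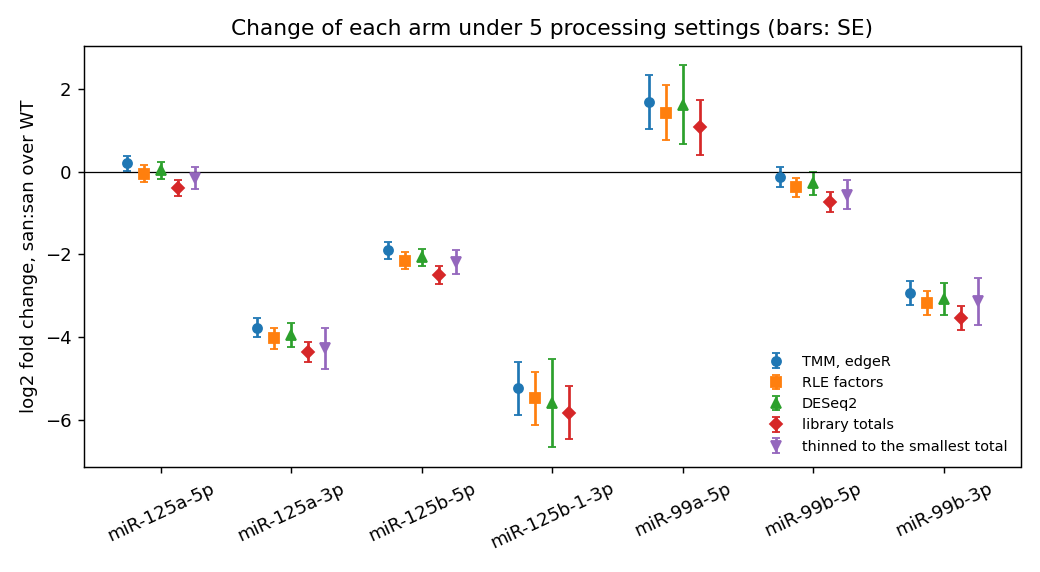
Log2 fold change of each arm (san:san over WT) under 5 processing settings, with SE bars. The 3p arms and miR-125b-5p stay below 0 in each setting shown, miR-125a-5p moves across 0, and the thinned setting has no value for miR-125b-1-3p and miR-99a-5p, which were then too low to test.

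The 5p to 3p balance of miR-125a shifted strongly toward 5p in san:san exosomes. In WT the 3p arm made up 42.6%, 40.9% and 45.5% of the counts of both arms in the respective replicates, so guide and passenger were present in nearly equal numbers. In san:san it made up 4.42%, 4.24% and 4.95%. The Wilson 95% intervals ran from 33.4% to 52.3% across the WT libraries and from 2.97% to 7.45% across the san:san libraries. There were 1.20 to 1.45 5p counts for each 3p count in WT and 19.2 to 22.6 in san:san. The log2 ratio of 5p to 3p was 0.41 ± 0.14 in WT and 4.32 ± 0.13 in san:san, a difference of 3.91 ± 0.31 (SE, limma adjusted p = 1.23e-04 over 49 hairpins), or 15.0-fold.

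miR-99b, from the same cluster, shifted in the same direction. Its 3p arm made up 36.1%, 36.1% and 52.6% of both arms in the WT libraries (36, 147 and 97 counts). The san:san share was 9.87%, 8.51% and 9.83% (314, 235 and 234 counts). WT replicate 3 stood above the other WT libraries, and the lowest WT share was still far above every san:san share. The log2 ratio was 0.50 ± 0.56 in WT and 3.18 ± 0.12 in san:san, a difference of 2.68 ± 0.39 (SE, limma adjusted p = 0.00233), or 6.43-fold. Without WT replicate 3 the difference was 2.37 (adjusted p = 0.00318).

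**Figure D3:**
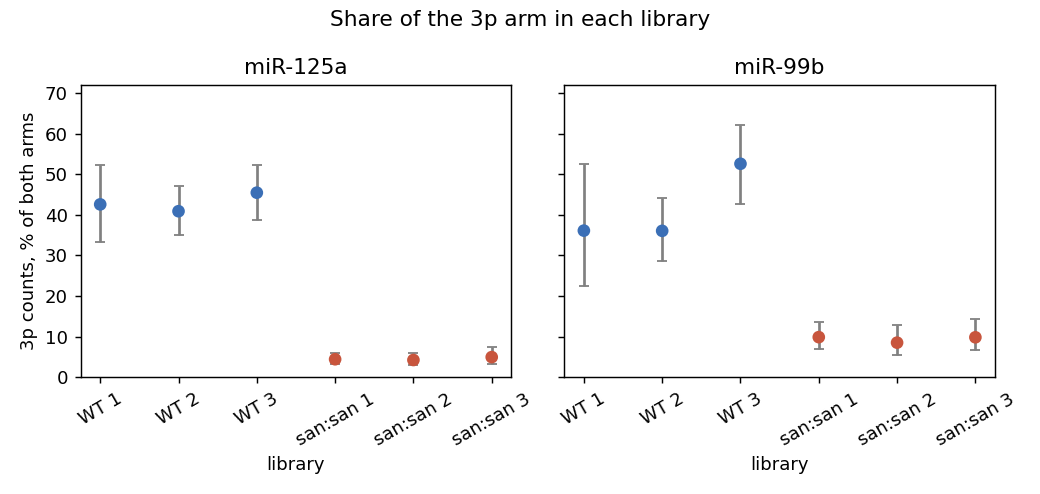
Share of the 3p arm among the counts of both arms of miR-125a (left) and miR-99b (right) in each library, in percent, with Wilson 95% intervals. All WT shares lie at or above 36.1% and all san:san shares at or below 9.87%.

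Such shifts were common among the hairpins tested. Both arms were named for 198 hairpins, and in 49 of them every library had 20 or more counts when the arms were summed. Of these, 46.9% passed: 15 shifted toward 5p in san:san (30.6%), 8 toward 3p (16.3%) and 26 did not pass. These hairpins are not all independent: miR-486a and miR-486b had identical counts of both arms and both counted as shifted toward 5p, and 6 hairpins shared the counts of at least 1 arm with another. With miR-486 counted once, 22 of 48 passed at the same p-values, 14 of them toward 5p. The median difference was 0.42. Several calls rest on an arm with few counts and so depend on the pseudocount, more of them toward 5p than toward 3p. Toward 5p, the 5p arms of miR-143 and miR-320 each summed to 0 in WT and 2 in san:san. The 3p arm of miR-150 summed to 1 and 0. Toward 3p, the 3p arm of miR-122 summed to 2 in WT and 90 in san:san. Where each arm needed 10 counts per genotype, fewer hairpins were tested and 13 were called. The split of 15 and 8 is therefore not read as a lean toward 5p. In size of shift toward 5p, miR-125a ranked 2 and miR-99b ranked 7, or 6 with miR-486 counted once. The value above miR-125a, of miR-130a (4.44 ± 0.81, limma adjusted p = 0.00746), rests on 2 counts of its 5p arm over WT and 3 over san:san and so depends on the pseudocount. Summed raw counts give a log2 change of 2.40 for miR-130a and 4.005 for miR-125a. The hairpins nearest to miR-125a in size were miR-130b (3.78 ± 0.72, 0.00834), miR-130a and miR-486a (3.28 ± 1.05, 0.0433), whose 3p arm summed to 5 counts in WT and to 0 in the deeper san:san libraries. For both miR-125a and miR-99b the 3p arm passed the test of level, downward, and the 5p arm did not pass.

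**Figure D4:**
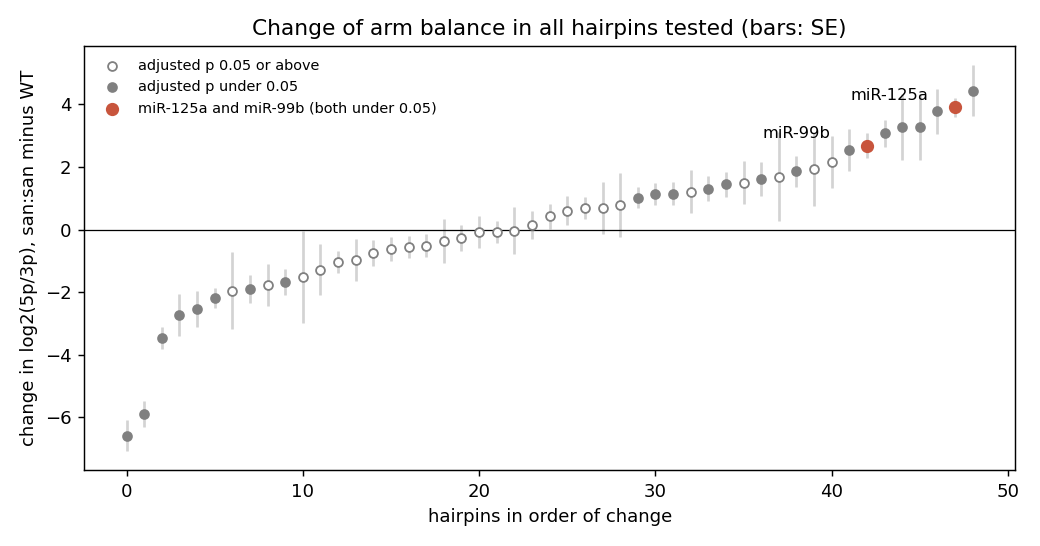
Change in log2 of the 5p to 3p ratio (san:san minus WT, SE bars) of the 49 hairpins tested, in order of size. Filled points passed at a limma adjusted p under 0.05. miR-125a (3.91) and miR-99b (2.68), in red, lie toward the upper end among other hairpins that also passed.

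Within libraries, the 3p arms of miR-125a and miR-99b also differed in their ratio to each other. The count ratio of miR-125a-3p to miR-99b-3p was 1.86 to 3.31 in WT and 0.913 to 1.45 in san:san, a difference of the mean log2 ratio of -0.97 without overlap (exact permutation p = 0.1, the smallest possible). For miR-125b, whose 5p arm comes from a pair of hairpins, the counts give only a mixed ratio. There were 14.5 to 28.3 counts of miR-125b-5p for each miR-125b-1-3p count in WT, and 289 and 84.0 in san:san replicates 1 and 3, with no miR-125b-1-3p count in replicate 2. The difference of the mean log2 ratio was 2.10 when the pseudocount scaled with library size and 2.81 when it was fixed (exact permutation p = 0.1 in each). For miR-99a-5p over miR-99b-5p it was 2.61 and 1.35, so the size of these ratios depended on the pseudocount.

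Of the cluster neighbours, 11 names were listed, 8 were in the table and 4 could be tested. let-7e-5p and let-7c-5p, members of the let-7 family that represses growth genes, were lower (2 of 4, against 29.5% of all miRNAs tested), none was higher (against 34.6%) and let-7a-5p and let-7c-2-3p did not pass. The latter is cut from a hairpin outside these clusters. The median log2 fold change of the 4, with let-7c-2-3p included, was -0.64, against 0.30 over all miRNAs tested. let-7e-5p, encoded between Mir99b and Mir125a, had WT counts of 111, 226 and 161 and san:san counts of 591, 493 and 280. It fell by 0.93 ± 0.20 on the log2 scale (SE, edgeR adjusted p = 0.00114), while the 5p arms on either side of it did not pass. Its counts were 1.41 to 1.91 times those of miR-125a-5p in WT and 0.695 to 0.753 times in san:san. Against miR-99b-5p they were 2.40 to 4.83 times in WT and 1.33 to 2.29 times in san:san. Neither ratio overlapped between the genotypes (exact permutation p = 0.1 for each). In all, 9 such ratios between pairs of arms were computed, and no p could be below 0.1. let-7e-3p summed to 3 counts in WT against 10 in san:san, and the let-7e arm balance did not pass (log2 difference -1.27 ± 0.80, limma adjusted p = 0.232).

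let-7c-5p, part of which can come from the miR-99a cluster, fell by 1.38 ± 0.19 (SE, edgeR adjusted p = 2.87e-05). miR-99a-5p beside it, tested only through san:san and with 5 WT counts in all, cannot be set against that fall. let-7a-5p (0.24, adjusted p = 0.294) and let-7c-2-3p (-0.35, 0.245) did not pass. miR-100-5p differs from miR-99a-5p only by U16A (the base of miR-99a-5p first), so counts of these names may not be fully separate. Its WT counts were 0, 6 and 5 and its san:san counts 12, 10 and 8, below the depth for a test. let-7a-2-3p had 1 count in all.

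A list of 7 related names held both arms of miR-351, miR-10a and miR-10b and miR-100-5p, of which miR-351-5p and miR-100-5p share a seed with a member. Of these names 3 could be tested. The arms of miR-351 were lower, but both were tested only through WT, since no san:san library reached the filter's level, so these calls are not set against the background. miR-351-5p carries the CCCUGAG seed of miR-125 on a hairpin of the X chromosome.
mmu-miR-351-5p: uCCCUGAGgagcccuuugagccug
The WT libraries had 4, 10 and 9 counts of it and the san:san libraries 9, 9 and 8, or 281, 281 and 330 CPM against 57.4, 68.5 and 82.9 CPM. It fell by 2.10 ± 0.44 on the log2 scale (SE, edgeR adjusted p = 8.07e-04). Its partner arm miR-351-3p, with 22 WT counts in all against 8 in san:san, also fell (-3.65 ± 0.64, adjusted p = 2.14e-04). miR-10a and miR-10b, encoded in the Hox gene clusters, are close to miR-99 in the sequence of their 5p arms but carry another seed, ACCCUGU. miR-10b-5p did not pass (-0.90 ± 0.49, adjusted p = 0.127), and miR-10a-5p, at 5 counts in all of WT against 49 in all of san:san, was too low to test, as were the 3p arms of both. Neither miR-10 hairpin was deep enough for the arm comparison.

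The other miRNAs whose levels ran most nearly in parallel with the 4 most abundant members, by Pearson's r of log2 CPM over the 6 libraries, are given as a description. In these 6 points most of r reflects the gap between the genotypes where there is one. miR-125a-3p ran closest with miR-139-3p (r = 0.998), miR-3473b (0.995) and miR-23a-5p (0.995), and miR-125b-5p with miR-188-5p (0.995), miR-3473b (0.993) and miR-3473e (0.993). All 5 of these names were lower in san:san, by log2 fold changes of -6.20 to -2.76 (edgeR adjusted p at most 1.36e-05). miR-125a-5p ran with miR-369-3p (0.957), miR-374b-5p (0.842) and miR-374c-5p (0.835). These 3 were higher in san:san, by log2 fold changes of 0.68, 1.13 and 1.15 (edgeR adjusted p of 0.0400, 0.00139 and 0.00136), although miR-125a-5p itself did not pass. miR-99b-5p ran with miR-532-5p (0.851), miR-221-3p (0.765) and miR-148a-3p (0.715), none of which passed.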

How the data were processed

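Per the labels, Trizol was used for the RNA and libraries of miRNA followed standard Illumina protocols. Per the submitters' processing notes the build was mm9. Not given in the sources used here were the aligner, trimming, filters, annotation release and treatment of reads matching several miRNAs. The authors deposited whole-number counts per mature miRNA, which were used as deposited. Their scaled per-sample values of the same reads were not used. Columns from samples outside the series numbered 0.

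Groups and replicate numbers came from sample titles. Genotypes were compared by the quasi-likelihood test of edgeR 4.0.16 in R 4.3.3, with filterByExpr at a minimum count of 10, TMM scaling and genotype as the only term, which kept 98.2% to 99.3% of each library's counts. Its SE is the fold change over the root of F. Arm balance was log2 of 5p over 3p counts with a pseudocount of 1 on average, in proportion to library size, tested with limma 3.58.1. Within-library ratios used the same pseudocount for log2 values and an exact permutation test. Scripts were tested on simulated data. The alternatives included DESeq2 1.42.0. The members and lists were chosen with earlier results of these data known. Genes named were the members, the listed neighbours and seed relatives, the 3 nearest hairpins in the arm test and the 3 closest correlates of the 4 most abundant members. Sequences and coordinates are from references and do not locate the authors' reads.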

Additional observations from a re-analysis of the deposited data

How the results depend on the processing

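The calls of miR-125a-3p (log2 -4.37 to -3.62), miR-99b-3p (-3.54 to -2.71), miR-125b-5p (-2.50 to -1.76) and miR-125b-1-3p (-6.17 to -4.68) and the balances of miR-125a (3.84 to 3.99) and miR-99b (2.37 to 2.86) kept direction and threshold under every alternative that could test them. No san:san library reached the main filter's level for miR-125b-1-3p, so it was tested through WT, where it was high. Its range is given as a description and is no support for its call. miR-125b-1-3p and miR-99a-5p could not be tested with at least 10 counts in every library or with libraries thinned to 12447 counts (20 draws), nor miR-99a-5p without any 1 of the san:san libraries. The miR-99a-5p value no longer passed with RLE factors (1.44), library totals (1.08) and DESeq2 (1.63), and ranged from 1.29 to 2.94 with a library left out. miR-125a-5p turned negative with RLE factors (-0.045), library totals (-0.39) and thinning (-0.15). miR-99b-5p was lower with library totals (-0.73) and at 0.0071 with no filter, and ranged from -0.32 to 0.068 with a library left out. The median of all tested miRNAs moved from 0.30 to 0.04 under RLE scaling, to 0.11 under DESeq2 and to -0.30 under library totals. The 163 calls, 88 higher and 75 lower, became 76 and 86, 62 and 104, and 49 and 101. DESeq2 was run on 707 names without the filter, and the others on 254. There were 66 calls with at least 10 counts in every library, which left 103 miRNAs to test. Thinned libraries gave a median of 83.5 calls among a median of 132 miRNAs tested. With a library left out there were 134 to 175 calls among 199 to 293 tested. These calls are therefore not counted over the same set as the 163. The 23 hairpins called in the arm comparison became 15 with a pseudocount of 0.5 and 9 to 26 with a library left out. Where each arm needed 10 counts per genotype, 13 were called among fewer hairpins tested, so this is not a loss of calls in the same set. Same-numbered libraries deviated together with correlations of 0.10, -0.08 and 0.26, so the numbers were not taken as pairs. With the replicate number as a block, 11 hairpins and 161 miRNAs were called and no member changed its call. The causes of these differences were not tested. Few counts limit miR-99a-5p in WT (5) and miR-125b-1-3p in san:san (3).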

Other observations

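Among the 254 miRNAs tested, names ending in 3p were not lower more often than names ending in 5p: 28 of 115 3p names (24.3%) and 30 of 115 5p names (26.1%) were lower in san:san. Of the 24 names with no arm suffix, 17 (70.8%) were lower and 3 were higher. No test of these shares was run.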
